A study of Mus musculus with 8 samples.

Results

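ADP-ribosylation is the transfer of ADP-ribose from NAD+ to proteins, either as single units or as poly(ADP-ribose) chains, a modification called PARylation. Enzymes of the PARP family write the mark, and a separate group of hydrolases erases it. Rnf146, the gene overexpressed in this study, encodes a ubiquitin ligase that binds poly(ADP-ribose) through its WWE domain and ubiquitylates the proteins that carry it, among them Axin after PARylation by the tankyrases. In the brain, ADP-ribosylation is best known for its part in the response to DNA breaks and in the use of neuronal NAD+.

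The RNA levels of 10 writers and erasers other than the tankyrases were examined. The writers are *Parp1*, *Parp2*, *Parp3*, *Parp6* and *Parp8*, and the erasers are *Parg*, *Adprs*, *Macrod1*, *Macrod2* and *Oard1*. They were chosen by gene symbol, and all 10 were among the 15039 genes with values. The values come from RNA sequencing of the prefrontal cortex (PFC) of 8 wild-type C57BL/6NCrljOri male mice. Of these, 4 had received AAV2/1-hsyn-RNF146-eGFP (Rnf146-overexpressing mice) and 4 had received AAV2/1-hsyn-eGFP, so that eGFP was common to both groups. The vector was injected bilaterally at 6 weeks of age, and tissue was taken 4 weeks later. Both vectors use the human synapsin promoter, which drives expression in neurons, whereas the RNA came from the whole dissected tissue. A lower value in such tissue can mean fewer cells of a type or less RNA per cell, and these cannot be told apart.

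The deposited values are on a log2 scale and had been centred by the authors within each pair of libraries that share a replicate number. Each gene therefore carries a mean and 4 pair differences, the Rnf146 value minus the eGFP value, and the values of the groups mirror each other. Differences below are on this scale. Its lowest value is 7.86, so weakly expressed genes lie near a floor where changes may be understated, and differences were not converted to folds. Whether the values are corrected for gene length is not given in the sources used here. The place of a gene on this scale is therefore not read as its rank in expression. The test was limma's, blocked on the replicate number, and genes with an adjusted p up to 0.1 were called. In this test 1.25% of the 15039 genes were called, 0.432% lower and 0.818% higher. *Rnf146* itself was higher in each Rnf146 library, between 13.01 and 13.17, than in any eGFP library, between 10.35 and 10.50 (mean difference 2.64 ± 0.13, SD, n = 4 pairs; limma adjusted p = 3.2e-07), with reads from the vector and from the mouse's own gene counted together. All 8 libraries thus matched their labels.

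Among the 10 genes, the call fell on *Parp3* alone, whose Rnf146 value was the lower one in each of the 4 pairs. Its mean difference was -0.24 ± 0.10 (SD, n = 4 pairs). The other 9 genes did not pass the test, with limma adjusted p-values between 0.466 for *Parg* and 0.978 for *Parp2*. Of the 10 mean differences, 8 were above 0 and 2 were below 0. Their median was 0.019, against 0.00086 over all genes. The median absolute difference was 0.033 for the 10 genes and 0.049 for all genes. The groups did not overlap for 1 of the 10 genes, *Parp3*. Over all genes this held for 20.6%, with 10.2% lower and 10.4% higher in Rnf146 libraries, so the share among the members was not above the background. A single called gene among 10 is too few to read against the share of called genes.

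**Figure D1:**
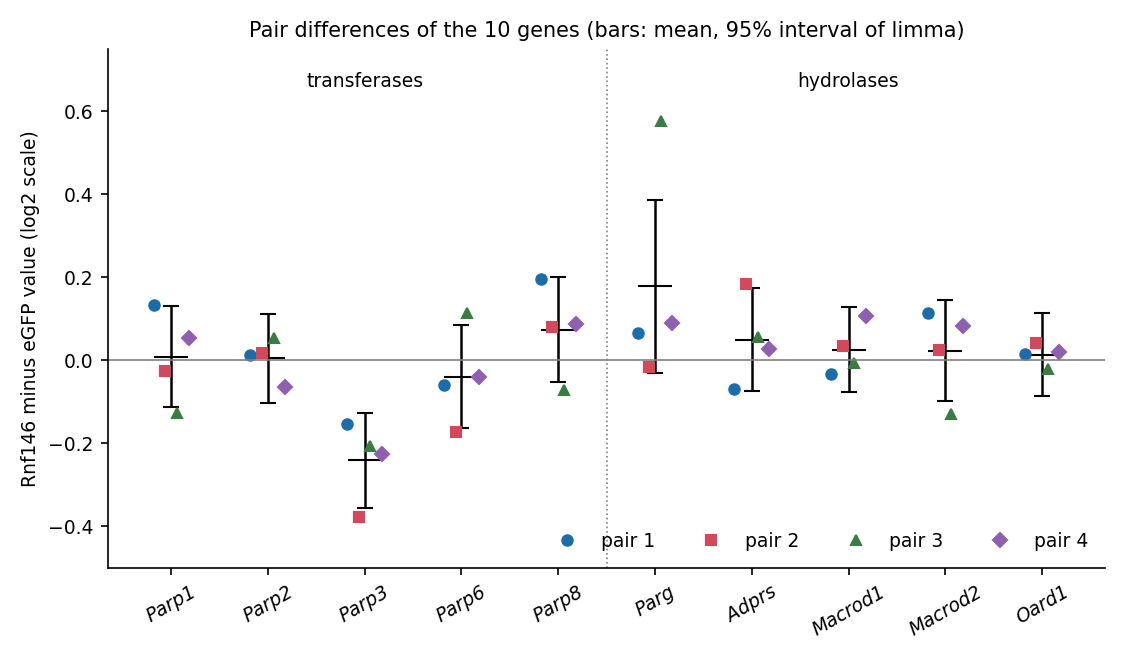
Rnf146 minus eGFP value of each of the 10 genes in the 4 pairs (colored symbols, log2 scale), with the mean and the 95% interval of limma in black; writers stand left and erasers right of the dotted line. The 4 *Parp3* differences lie between -0.38 and -0.15, and the *Parg* difference of pair 3 lies at 0.58.

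Of the writers that respond to DNA breaks, *Parp3* encodes an enzyme that attaches mainly single ADP-ribose units and takes part in double-strand break repair. It lies on chromosome 9 (GRCm39, 106347521 to 106354159, minus strand). Its value was 8.70, 8.82, 8.73 and 8.74 in the eGFP libraries 1 to 4. In the Rnf146 libraries it was 8.55, 8.44, 8.52 and 8.51. Every Rnf146 library lay below every eGFP library, which in values centred within pairs says no more than 4 pair differences below 0. The distance was greatest in pair 2. The pair differences were -0.15, -0.38, -0.21 and -0.23.

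The mean difference of *Parp3* had a 95% interval of -0.35 to -0.13, with a limma adjusted p = 0.0922. It ranked 177 by p among all genes, and 97.0% of the genes had a smaller absolute difference. The gene stood low on the scale, with a mean value of 8.63, and 14.2% of the genes had a lower mean. By exact sign flips, 4 pairs allow no two-sided p smaller than 0.125. The call ended when pair 2, 3 or 4 was left out (adjusted p = 0.344, 0.159 and 0.330 from limma) and held without pair 1 (0.0739), while the mean difference stayed between -0.27 and -0.20. Without pair 1, 2, 3 or 4, the share of all genes called was 2.8%, 0.279%, 1.12% and 0.0931%. The *Parp3* call also ended without an intensity trend in the variances (adjusted p = 0.104 from limma) and at a threshold of 0.05.

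*Parp3* lies head to head with *Rrp9*, a gene for a component of the U3 small nucleolar ribonucleoprotein, on the plus strand. Both genes had lower Rnf146 values in all 4 pairs, as did 10.2% of all genes, and a shared control was not tested. The stretch shown was picked for this direction and lies between the outermost annotated start of *Parp3* and the canonical start of *Rrp9*. It spans chr9:106354160-106354442 (GRCm39), is printed on the minus strand so that it reads toward *Parp3*, and holds no annotated exon base of either gene. Capitals mark CCAAT boxes, which here read in the reverse orientation.
Parp3-Rrp9 stretch: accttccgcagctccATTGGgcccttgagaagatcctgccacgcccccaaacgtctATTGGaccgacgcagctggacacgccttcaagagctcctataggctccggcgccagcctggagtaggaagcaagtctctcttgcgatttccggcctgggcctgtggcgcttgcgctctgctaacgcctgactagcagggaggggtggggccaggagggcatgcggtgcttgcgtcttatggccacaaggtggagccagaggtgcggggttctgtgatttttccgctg

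The 283 bases hold 17 CpG dinucleotides and 2 CCAAT boxes, whose matches begin at bases 16 and 57, counted from 1 at the 5′ end as printed. Base 1 adjoins the canonical start of *Rrp9*, so both boxes lie at the *Rrp9* end and read CCAAT on the strand of *Rrp9*. Of 13171 windows of the same length directly before the canonical start of protein-coding genes in the table, 38.1% hold CCAAT on either strand and 12.6% hold it 2 or more times. The other motifs searched on both strands have no match in the stretch: the GC box GGGCGG, the TATA box TATAAA, the E-box CACGTG, the ETS motif CCGGAAGT, the cAMP response element TGACGTCA, the E2F motif TTTCGCGC, the NRF1 palindrome and the interferon-stimulated response element. A match describes letters, not a bound site, and the absence of one says only that these letters are not in this stretch. The canonical start of *Parp3* itself lies farther inside the gene, 866 bases from that of *Rrp9*, and the window from 250 bases before to 50 after it holds none of the motifs searched, CCAAT included.

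The pair differences of *Rrp9* were -0.14, -0.17, -0.09 and -0.16, all below 0. Their mean was -0.14 ± 0.04 (SD, n = 4 pairs), and the gene was not called (limma adjusted p = 0.269). An annotated *Rrp9* transcript reaches into *Parp3* on the opposite strand. The library kit keeps the strand, but whether the counting used it is not given in the sources used here, so reads in the overlap may be shared.

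*Parp1* (chromosome 1, 180396443 to 180431307, plus strand) encodes the main poly(ADP-ribose) polymerase of the nucleus, activated by DNA strand breaks. Its value was 11.05, 11.13, 11.18 and 11.09 in the eGFP libraries and 11.18, 11.10, 11.05 and 11.14 in the Rnf146 libraries. The groups overlapped, with higher Rnf146 values in pairs 1 and 4 and lower ones in pairs 2 and 3. The mean difference was 0.0090 ± 0.11 (SD, n = 4 pairs), with a 95% interval of -0.11 to 0.13 (limma adjusted p = 0.968).

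*Parp2* (chromosome 14, 51044948 to 51058759, plus strand), which also builds chains at strand breaks, had nearly the same value in all libraries, from 9.58 to 9.64 in both groups. Its mean difference was 0.0054 ± 0.050, with a 95% interval of -0.10 to 0.11 (limma adjusted p = 0.978). Its exons overlap those of *Rpph1*, the gene for the RNA component of ribonuclease P, by 277 bases on the opposite strand. *Rpph1* had no value in the table.

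*Parp6* and *Parp8* encode mono-ADP-ribosyltransferases of the cytoplasm, and *Parp6* is known for its role in the growth of dendrites. *Parp6* (chromosome 9, 59524447 to 59557822, plus strand) had values of 11.73, 11.79, 11.65 and 11.72 in the eGFP libraries and 11.67, 11.62, 11.76 and 11.68 in the Rnf146 libraries. It was lower in pairs 1, 2 and 4 and higher in pair 3. The mean difference was -0.040 ± 0.12 (SD, n = 4 pairs), less than the SD (95% interval -0.16 to 0.084; limma adjusted p = 0.824).

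*Parp8* (chromosome 13, 116987380 to 117162073, minus strand) had pair differences of 0.20, 0.08, -0.07 and 0.09. It was higher in 3 of 4 pairs, by a mean of 0.074 ± 0.11, which was within the spread between the pairs (95% interval -0.053 to 0.20; limma adjusted p = 0.647). Pair 3 went against the other pairs in both *Parp6* and *Parp8*, upward in the former and downward in the latter.

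Among the erasers, *Parg* encodes the glycohydrolase that cleaves poly(ADP-ribose) chains. It lies on chromosome 14 (31923881 to 32020671, plus strand). Its value was 10.25, 10.29, 9.997 and 10.24 in the eGFP libraries. In the Rnf146 libraries it was 10.32, 10.28, 10.57 and 10.33. Pair 3 held both the lowest eGFP and the highest Rnf146 value. The other libraries stayed between 10.24 and 10.33, and in pair 2 the Rnf146 value was the lower one.

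The pair differences of *Parg* were 0.07, -0.02, 0.58 and 0.09, and they averaged 0.18 ± 0.27 (SD, n = 4 pairs). The spread exceeded the mean, and the gene was not called (95% interval -0.030 to 0.39; limma adjusted p = 0.466). Without pair 3 the mean was 0.047 (adjusted p = 0.808 from limma). The difference of pair 3 was larger in absolute size than that of 99.4% of all genes in that pair. Because the values are centred within pairs, it cannot be told apart whether the eGFP or the Rnf146 library of pair 3 was the unusual one. Dixon's ratio for this pair was 0.819, short of the 95% critical value for 4 values.

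**Figure D2:**
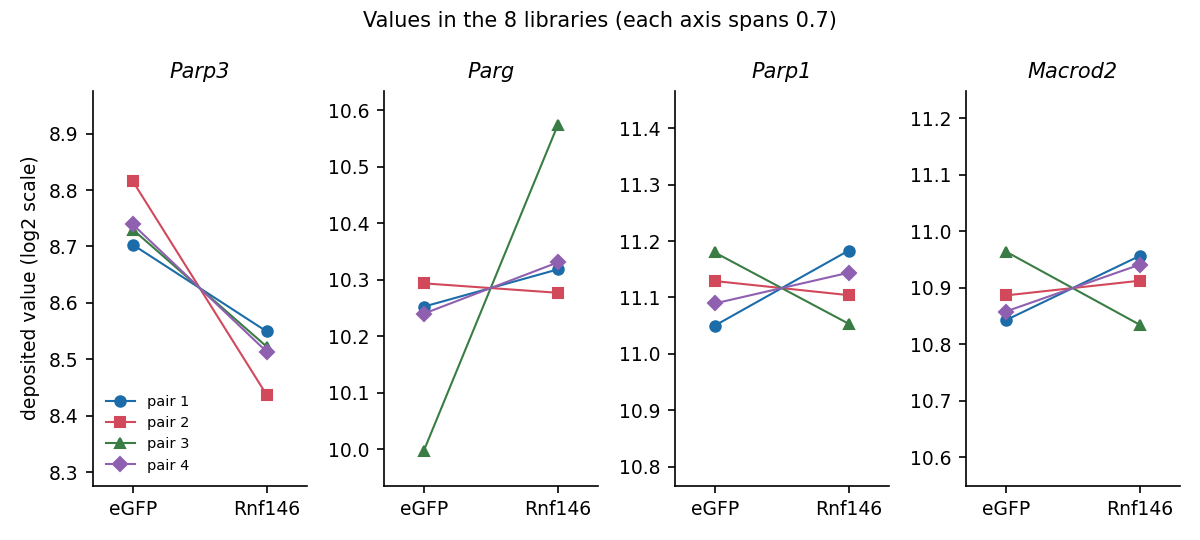
Deposited values (log2 scale) of *Parp3*, *Parg*, *Parp1* and *Macrod2* in the eGFP and Rnf146 libraries, with a line joining the libraries of each pair and axes of equal span. All 4 *Parp3* lines fall, the *Parg* line of pair 3 runs from 9.997 to 10.57 while the others stay nearly level, and the lines cross at the mean because the values are centred within pairs.

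*Parg* shares its start region with *Timm23*, a gene for a subunit of the mitochondrial import channel, whose canonical start lies 51 bases away on the opposite strand. *Timm23* had pair differences of -0.04, -0.08, -0.13 and 0.14 (mean -0.027 ± 0.12, SD, n = 4 pairs; limma adjusted p = 0.893). In pair 3, where the *Parg* difference was largest, *Timm23* had a difference of the opposite sign.

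*Adprs* encodes the hydrolase ARH3, which removes ADP-ribose from serine, the main residue modified after DNA damage, and its loss causes a childhood neurodegenerative disorder in humans. It lies on chromosome 4 (126209136 to 126215513, minus strand) and had pair differences of -0.07, 0.18, 0.06 and 0.03. The groups overlapped through pair 1 and the mean was 0.050 ± 0.10 (SD, n = 4 pairs), less than the SD (95% interval -0.074 to 0.17; limma adjusted p = 0.766).

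The macrodomain hydrolases *Macrod1*, *Macrod2* and *Oard1* remove single ADP-ribose units from acidic residues, and *Oard1* also releases whole chains. *Macrod1* (chromosome 19, 7033793 to 7182554, plus strand), whose product resides mainly in mitochondria, had pair differences of -0.03, 0.03, -0.0058 and 0.11. The mean was 0.026 ± 0.061 (SD, n = 4 pairs; 95% interval -0.076 to 0.13; limma adjusted p = 0.870). Its canonical exons overlap those of *Otub1* on the opposite strand by 606 bases, so its reads are uncertain to that extent, and *Otub1* had a mean difference of -0.00042 ± 0.046.

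*Macrod2* (chromosome 2, 140237229 to 142234886, plus strand) spans 1997658 bases, the longest of the 10 genes, and is known from genetic studies of autism. Its values were 10.84, 10.89, 10.96 and 10.86 in the eGFP libraries and 10.96, 10.91, 10.83 and 10.94 in the Rnf146 libraries. It was higher in 3 pairs and lower in pair 3. The mean difference was 0.023 ± 0.11 (SD, n = 4 pairs; 95% interval -0.098 to 0.14; limma adjusted p = 0.906).

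Both *Macrod* loci hold a gene of the FLRT adhesion family inside, on the opposite strand. *Flrt1* within *Macrod1* had a mean difference of -0.070 ± 0.091 and *Flrt3* within *Macrod2* had 0.075 ± 0.11 (limma adjusted p = 0.633 and 0.629). Neither overlaps a canonical exon of its host.

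*Oard1* (chromosome 17, 48715607 to 48724304, plus strand) had the smallest spread of the 10 genes. Its values ran from 9.08 to 9.11 in the eGFP libraries and from 9.09 to 9.12 in the Rnf146 libraries. The mean difference was 0.014 ± 0.026 (SD, n = 4 pairs; limma adjusted p = 0.936), and 2.10% of all genes had a smaller spread of the pair differences. The moderated 95% interval of -0.087 to 0.11 is wider than this spread alone would give, since limma draws the variances of genes toward a common trend. *Nfya*, whose canonical start lies 10 bases from that of *Oard1* on the opposite strand, had pair differences between -0.26 and 0.16 and a mean of -0.037 ± 0.18.

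Apart from *Parp3*, the 95% intervals of the members lay between -0.16 and 0.20 on the deposited scale, or up to 0.39 with *Parg*. A missed threshold within such intervals does not show that these genes were equal between the groups. The median spread of the pair differences was 0.11 for the 10 genes and 0.098 for all genes.

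**Figure D3:**
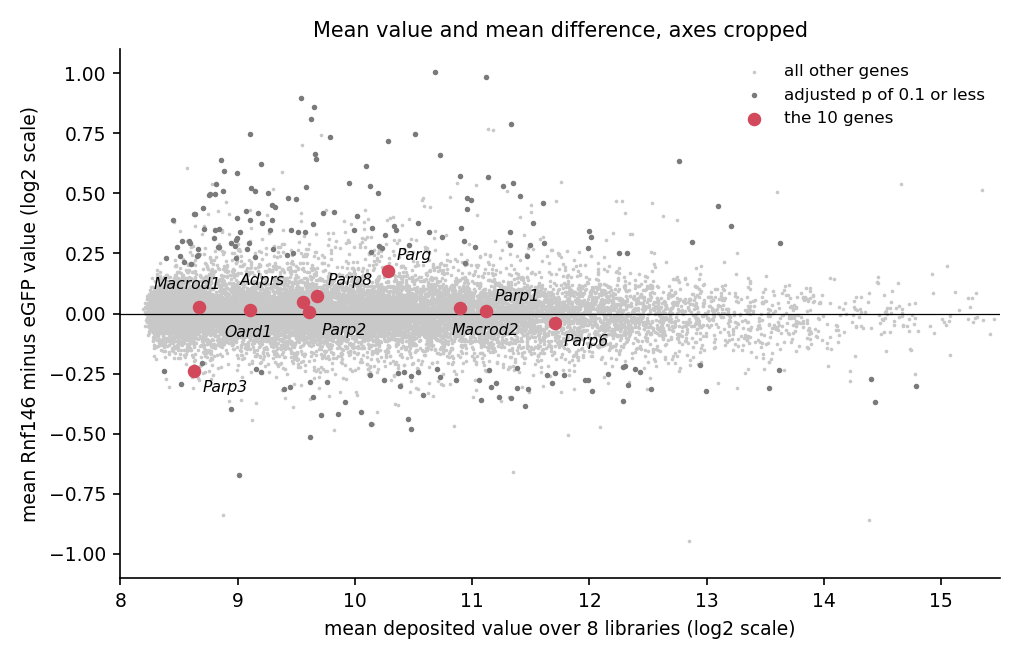
Mean value over the 8 libraries (x axis) against the mean Rnf146 minus eGFP value (y axis), both log2 scale, for the 10 genes (red), the other called genes (dark gray) and the remaining genes (light gray). *Parp3* lies among the called genes at -0.24 near the low end of the scale and the other members lie in the band of all genes; 21 genes, *Rnf146* among them, fall outside the cropped axes.

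In no pair did the 10 genes all go in one direction. *Parp1*, *Parp8* and *Macrod2* each had their highest difference in pair 1 and their lowest in pair 3. Whether members vary together was not tested. The number of members with a higher Rnf146 value was 6, 6, 4 and 7 of 10 in pairs 1 to 4, and the median member difference was 0.015, 0.022, -0.014 and 0.041. In pair 3, *Parg*, *Parp6*, *Adprs* and *Parp2* were above 0, whereas *Parp1*, *Macrod2*, *Parp8* and 3 others were below it.

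The genes whose 4 pair differences lay nearest to those of *Parp3* were *Hdac7*, *1700016P03Rik* and *Midn*. The root mean square distance over the 4 pairs was 0.020, 0.034 and 0.034. *Hdac7*, which encodes a class IIa histone deacetylase, had differences of -0.17, -0.38, -0.24 and -0.25 (limma adjusted p = 0.0758). *1700016P03Rik* was called as well and *Midn* was not (limma adjusted p = 0.0738 and 0.114). Since these genes were picked for nearness to *Parp3*, adjusted p-values close to that of *Parp3* follow from the choice. In all, 12 genes lay within 0.05 of *Parp3*, and 4 points per gene describe likeness only loosely.

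The wider ADP-ribose pathway was read in 6 lists with 81 different genes in the table, without the 10 members and *Rnf146*. In limma with the block, none of the 81 passed the test (0 called), and 8 (9.88%) had an unadjusted p under 0.05, against 12.4% of all genes. Without the block, 14 were called, where 21.5% of all genes were. No list median lay farther from 0 than that of the interferon and antigen presentation genes, -0.054.

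The other PARP family genes, 11 of 11 in the table, ran from -0.095 for *Tiparp* to 0.086 for *Tnks*. The tankyrases, which PARylate Axin and so mark it for Rnf146, had mean differences of 0.086 ± 0.087 for *Tnks* and 0.030 ± 0.076 for *Tnks2* (SD, n = 4 pairs; limma adjusted p = 0.517 and 0.854). The list median was 0.0033.

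The cofactors and further ADP-ribose hydrolases had a median of 0.040 over 8 genes. *Hpf1*, whose product directs Parp1 and Parp2 to serine, had 0.039 ± 0.077 (SD, n = 4 pairs). *Enpp1*, a phosphodiesterase that also cleaves ADP-ribose, had the largest value of this list, 0.22 ± 0.11, and was higher in all 4 pairs but was not called (limma adjusted p = 0.143). In this list 2 of 8 genes were higher in all 4 pairs, against 10.4% of all genes. *Nudt9* had the lowest value, -0.050.

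The genes of NAD+ synthesis and use had a median of -0.0080 over 15 genes. Their extremes were *Sirt2*, a deacetylase abundant in oligodendrocytes, at 0.13 ± 0.090 and *Sarm1*, the NAD+ hydrolase of degenerating axons, at -0.11 ± 0.072 (limma adjusted p = 0.320 and 0.400). The readers of ADP-ribose other than *Rnf146* had a median of -0.024 over 14 genes, from -0.13 for *Dtx4* to 0.057 for *Macroh2a1*.

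The genes of single-strand break and base excision repair had a median of 0.0073 over 18 genes. *Mutyh*, a DNA glycosylase gene, reached 0.21 ± 0.12 and *Tdp1* had the lowest value, -0.084 (limma adjusted p = 0.158 and 0.547). *Xrcc1*, the scaffold that poly(ADP-ribose) recruits to breaks, had 0.016 ± 0.12.

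**Figure D4:**
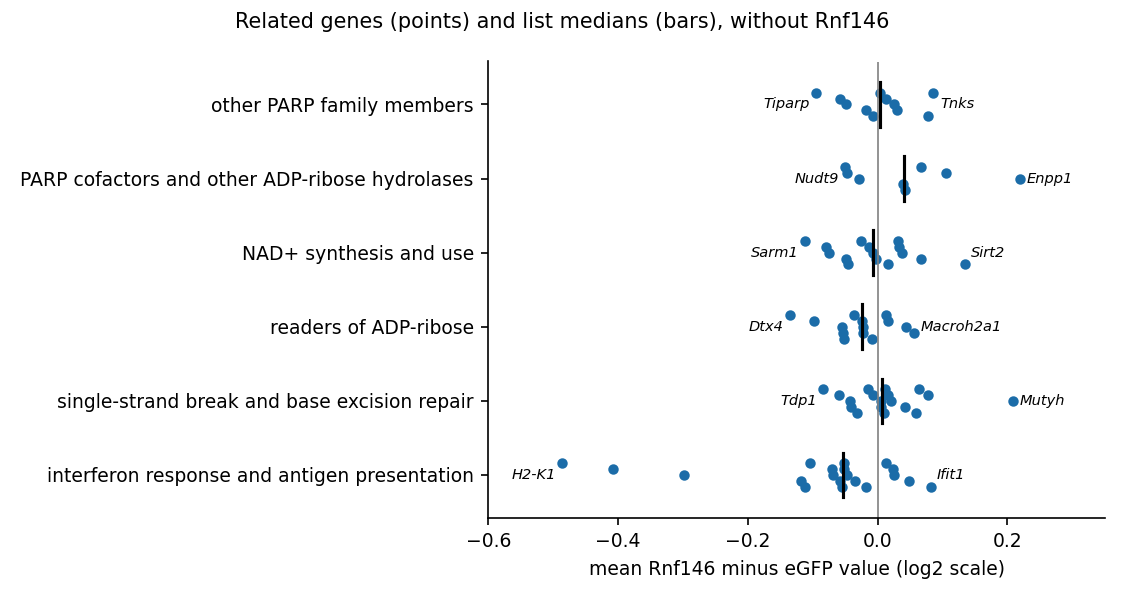
Mean Rnf146 minus eGFP value (log2 scale) of each gene of the 6 related lists (points), with the list medians (black bars) and the names of the lowest and highest gene of each list. Most points lie near 0; *Enpp1* and *Mutyh* lie above 0.2, and *H2-K1* lies lowest at -0.49.

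Interferon and antigen presentation genes were read because several PARPs are induced by interferon. This list had 0 of 20 genes called, and 5 were below 0 in all 4 pairs, where 10.2% of all genes were. *H2-K1*, a class I major histocompatibility gene, had the lowest value, -0.49 ± 0.41 (SD, n = 4 pairs; limma adjusted p = 0.188), and its pair differences lay between -0.99 and -0.03, while *Ifit1* had the highest, 0.081. *Parp9*, *Parp12* and *Parp14*, interferon-induced PARPs that are also in the list of PARP family genes, had mean differences of 0.025, -0.018 and -0.058.

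The microglial markers had list means of 10.18 to 10.26 in the eGFP libraries and 10.01 to 10.10 in the Rnf146 libraries. Of 9 genes, 1 was called lower, *C1qb* at -0.26 ± 0.055 (limma adjusted p = 0.0682), and 7 were below 0 in all 4 pairs, against 0.432% of all genes called lower and 10.2% below 0 in all pairs. The list means of the markers of cortical excitatory neurons ran from 11.53 to 11.68 and from 11.31 to 11.46. Of these 8 genes, 2 were called lower, *Neurod2* and *Slc17a7*. In pairs 1 to 4 the microglial list mean differed by -0.21, -0.25, -0.080 and -0.10, and the excitatory neuron list mean by -0.21, -0.37, -0.077 and -0.21. Both lists and *Parp3* were lowest in pair 2, but the lists were nearest 0 in pair 3 and *Parp3* in pair 1.

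Of the markers of septum and basal forebrain, 5 of the 6 genes in the table were called higher, with list means of 9.37 to 9.50 in the eGFP libraries and 9.75 to 9.88 in the Rnf146 libraries. Over all genes, 0.818% were called higher. *Lhx8*, *Nkx2-1* and *Chat* of this list had no value in the table. The inhibitory neuron list had 3 of 7 genes called higher, *Gad1*, *Gad2* and *Slc32a1*, with a list mean difference of 0.17 and a median of -0.027. No other gene of this list had a mean above 0. The lowest, *Vip* at -0.23 ± 0.12 (SD, n = 4 pairs), was below 0 in all 4 pairs and was not called. The ependymal list had 1 of 3 genes called higher. The oligodendrocyte list (0 of 8 called) and the striatal list (0 of 7) ran from -0.17 and -0.13 in pair 1 to 0.83 in pair 3 and 1.39 in pair 2. The oligodendrocyte list was at 0.47 in pair 2 and 0.53 in pair 4, where *Parg* was at -0.02 and 0.09, and both were highest in pair 3. The astrocyte list (0 of 7 called) and the endothelial and mural list (0 of 6) lay between -0.072 and 0.093 in each pair. The part of any of these shifts in the *Parp3* and *Parg* values was not tested.

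**Figure D5:**
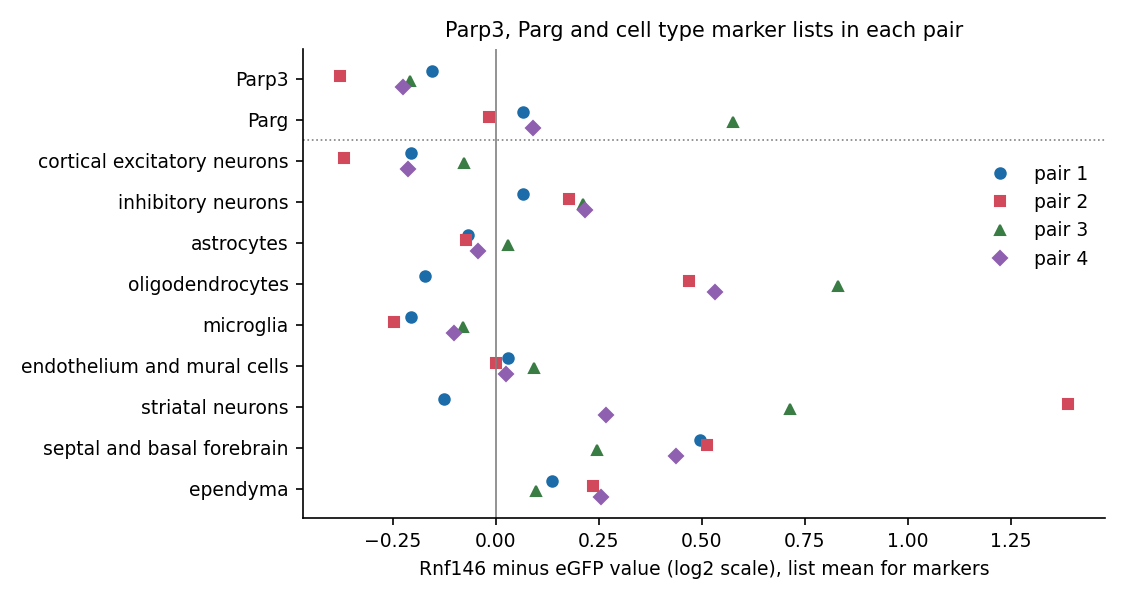
Rnf146 minus eGFP value (log2 scale) of *Parp3* and *Parg* and the mean over each cell type marker list, in the 4 pairs. *Parp3*, the microglial list and the excitatory neuron list lie below 0 in every pair, the septal list lies above 0 in every pair, and the oligodendrocyte and striatal lists spread widely between pairs.

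In the promoter windows of the 10 genes (250 bases before to 50 after the canonical start), GGGCGG was present in 6 of 10, against 57.9% of the windows of all genes, and CCAAT in 3 of 10, against 38.96%. CCGGAAGT was present in the windows of *Parg* and *Adprs*, against 6.35% of all windows. No motif searched was in all 10 windows, the TATA box and the E-box being in 1 window each.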

How the data were processed

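Total RNA from the dissected PFC was made into TruSeq stranded mRNA libraries, 1 per replicate number and group. The authors trimmed reads with Cutadapt, quantified transcripts with Salmon 1.9.0 against GENCODE vM30 (GRCm39) and deposited 1 table of gene values. The table is called normalized counts, but the deposited values are on a log2 scale, from 7.86 to 18.8. The transformation is not given in the sources used here, although DESeq2 is among the tools of the submitters' processing notes. Because the table holds no counts, depth is unknown and no count test was run.

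For every gene, the sum of the eGFP and the Rnf146 value was equal across pairs (largest spread 1.4e-13), so the replicate numbers of the labels, by which the authors centred, pair the libraries. The labels do not say whether a number marks a litter, day or batch, and p-values measure only the spread between these libraries. The test used limma 3.58.1 and R 4.3.3 (replicate block, 3 residual degrees of freedom, variance trend) with Benjamini-Hochberg adjustment over 15039 genes, and called at 0.1, the false discovery rate used in the study. SDs are over 4 pair differences. Genes and their canonical starts were taken from GENCODE vM39 and sequence from the GRCm39 genome. The alternatives were no block, each pair left out, median centring, quantile normalization, no trend, robust variances, array weights, genes with a mean value under 8.99 left out (11279 tested) and a threshold of 0.05.

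The members and lists were chosen with earlier results of these data known. Named were all members, *Rnf146*, the tankyrases, called and extreme genes of the lists, overlapping or head-to-head genes, and the 3 genes nearest to a called member. *Hpf1*, *Xrcc1*, the interferon-induced PARPs and *H2-K1*'s pair values were added for their roles after values were seen.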

Additional observations from a re-analysis of the deposited data

How the results depend on the processing

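*Parp3* was called in 6 of the 11 alternatives that gave it a value, with limma adjusted p-values from 0.0033 to 0.344. It was below 0 in all 11. With 4 pair differences below 0, leaving out or weighting pairs could not turn the sign of *Parp3*. The block, trend, robust and threshold settings leave its mean unchanged. Its value was -0.24 without the variance trend (adjusted p = 0.104) and at the 0.05 threshold, where 0 members were called. With genes of a mean value under 8.99 left out, *Parp3* and *Macrod1* were not tested, so 0 members were called. Without the replicate block, 1655 genes were called higher and 1571 lower, among them *Parp3* as the only member, and 14 related genes. No replicate block counts the centred values as 8 independent libraries. Array weights gave 221 higher, 134 lower and 3 related genes, and turned *Parp2* to -0.0031. The threshold of 0.05 left 67 higher and 13 lower. With each pair left out in turn, 14 to 302 genes were called higher, 0 to 119 lower, 0 to 4 of the related lists and 0 to 1 members lower. The ranges were then -0.27 to -0.20 for *Parp3*, -0.032 to 0.054 for *Parp1*, -0.010 to 0.029 for *Parp2*, -0.091 to 0.0045 for *Parp6*, -0.0017 to 0.045 for *Macrod1* and -0.0069 to 0.074 for *Macrod2*, so that the last 5 turned sign. *Parp8* ran from 0.032 to 0.12, *Parg* from 0.047 to 0.24, *Adprs* from 0.0050 to 0.089 and *Oard1* from 0.0045 to 0.026, none of them called. Leaving out pair 4 gave the fewest calls, 14 higher and 0 lower, and leaving out pair 1 the most. The causes were not tested.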

Other observations

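Pairs differed in how far they bore on single members. In pair 3 the *Parg* difference of 0.58 was exceeded upward by 73 of the 15039 genes. *Lig3*, a DNA ligase gene of single-strand break repair, had 0.35 in that pair and between -0.08 and 0.02 in the others. It was chosen here after its values were seen, so its likeness to *Parg* in pair 3 follows from the choice, and a link was not tested. *Parp11*, a mono-ADP-ribosyltransferase gene also chosen after its values were seen, was higher in all 4 pairs by 0.04 to 0.10, with a mean of 0.078 ± 0.027 (SD, n = 4 pairs), and was not called (limma adjusted p = 0.524). Over all genes, 10.4% were higher in all 4 pairs. Of the 11 other PARP family genes, 2 were higher in all 4 pairs, *Parp11* and *Tnks*, and 1 was lower in all 4, *Parp14*.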
